A study of Zea mays with 18 samples.

Results

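The gene models described here are those whose transcript level responded differently to a brassinosteroid in shoots and in the 1st leaf of maize seedlings. Polyadenylated RNA was sequenced from the inbred line B73, germinated for 3 days in the dark and then grown for 48 h in nutrient solution. The groups were EBL shoots (stem, apex and coleoptile, with 1 nM epibrassinolide, EBL), control shoots, EBL 1st leaves and control 1st leaves, with 3 biological replicates each, 12 of the 18 samples in all. EBL and control primary roots, grown in the same way, supplied a readout that was not used to choose the gene models. The labels do not say whether the controls received a solvent, how many seedlings went into a sample, or whether replicates came from separate cultures.

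Values are RPKM, read numbers divided by feature length and by library size, with 1 value per group in the authors' table. No replicate error, p-value or interval can therefore be attached to any value or difference below, and the depth is unknown. The EBL effect in an organ is log2((EBL + 1)/(control + 1)), a scale that understates changes at low levels, and the quantity of interest is the shoot effect minus the leaf effect. Of 43484 gene models with Zm00001d identifiers, 29044 had all 4 shoot and leaf values above 0 and were compared. The effects differed by 1 or more, a 2-fold difference between the responses, for 1330 of them (4.58%). Of the 14440 not compared, 8228 were listed at 0 in all 4 columns and 180 were listed at 0 in some of them while reaching 5 RPKM in another.

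Brassinosteroids are steroid hormones of plants. In Arabidopsis they bind a receptor kinase at the cell surface, whose signal shuts off an inhibitory kinase and so frees a small family of transcription factors that act on genes of cell elongation, cell walls and growth. In grasses, mutants that make or sense less of the hormone are dwarfed, with short internodes and upright leaves. The shoot sample joins growing stem, meristem and coleoptile, whereas the 1st leaf is a young photosynthetic organ. The gene models could not be given names or functions, since the file gives identifiers only and 0 of 43484 matched the RefSeq gene table. For the same reason the organ labels could not be checked against marker genes, and the gene models are described by level, direction and organ pattern.

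The difference lay mostly on the side of the leaf. The leaf effect was the higher one for 1156 gene models (3.98% of those compared) and the shoot effect for 174 (0.599%), so that 86.9% of the 1330 leaned towards the leaf. With the columns scaled to an equal sum over the gene models, which moved the median difference of all gene models to 0.13 (log2) from 0.02, the leaf effect was higher for 719 and the shoot effect for 351, a share of 67.2% on the leaf side. In the values as deposited, the gene models summed to 1.08 times as much RPKM in EBL as in control shoots and to 1.25 times as much in EBL as in control leaves. Under the equal-sum scaling, 718 of the 719 and 172 of the 351 were among those found in the deposited values, and none stood in the opposite direction.

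Median levels describe each group as a whole, although the larger one mixes several classes that are set out below. For the 1156, the median was 5.12 RPKM in EBL shoots and 6.30 in control shoots, and 15.9 RPKM in EBL leaves and 5.74 in control leaves. Their median shoot values were thus nearly level while their median leaf values were well apart. For the 174, the medians were 4.70 RPKM in EBL shoots and 3.46 in control shoots, and 4.26 RPKM in EBL leaves and 11.3 in control leaves. The effects had opposite signs in 695 of the 1156 (60.1%) and in 111 of the 174 (63.8%), compared with 39.6% of all gene models. These values were used to choose the gene models and carry no test.

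**Figure D1:**
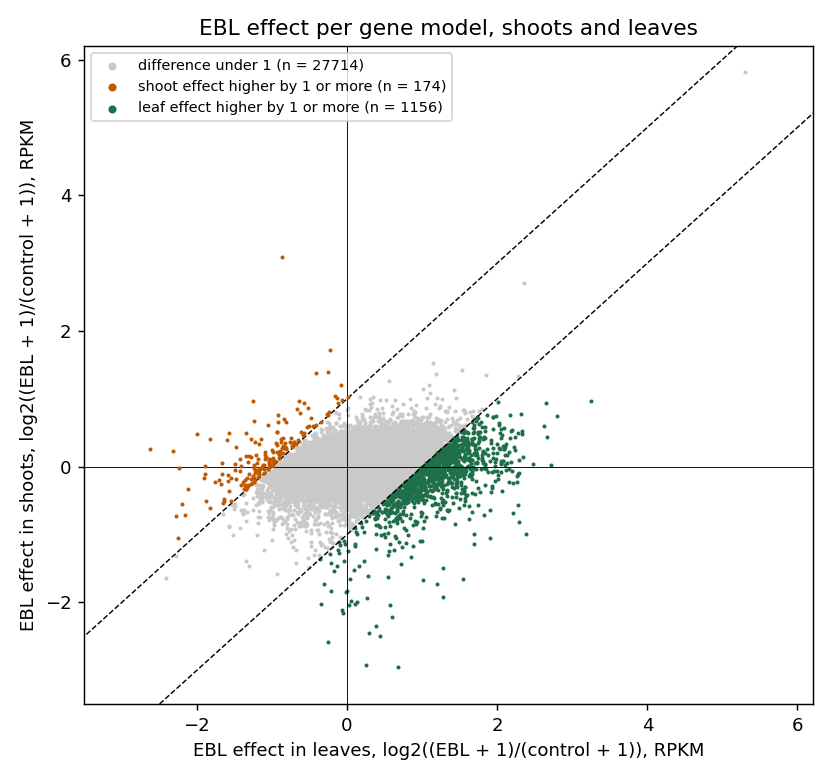
EBL effect in shoots (vertical) against that in leaves (horizontal), each as log2((EBL + 1)/(control + 1)) of RPKM, for 29044 gene models. Dashed lines mark a difference of 1 between the effects. The 1156 gene models with a higher leaf effect lie below the lower line and spread mainly along the leaf axis, and the 174 with a higher shoot effect lie above the upper line.

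Many differences were close to the threshold. Of the 1156, 479 (41.4%) differed by less than 1.2, 310 by 1.5 or more and 86 by 2 or more. Of the 174, 96 (55.2%) differed by less than 1.2, 39 by 1.5 or more and 8 by 2 or more. The nearest values on either side of the threshold were 1.001 and 0.998 where the shoot effect was higher, and -1.001 and -0.999 where the leaf effect was. In all, 324 gene models lay between 1 and 1.1 in size and 402 between 0.9 and 1. Membership near the threshold therefore turned on small differences in RPKM.

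Differences were found at all levels above 1 RPKM, in like shares on the leaf side. Among those with a mean over the 4 columns of 1 to 5 RPKM, 5.37% had a higher leaf effect and 1.05% a higher shoot effect. Between 15 and 50 RPKM 4.18% had a higher leaf effect and 0.684% a higher shoot effect, and above 200 RPKM the shares were 5.01% on the leaf side and 0.876% on the shoot side. Below 1 RPKM, where the pseudocount damps every effect, they were 0.646% on the leaf side and 0.133% on the shoot side. Of the 1330, 892 (67.1%) had a mean of at least 5 RPKM.

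**Figure D2:**
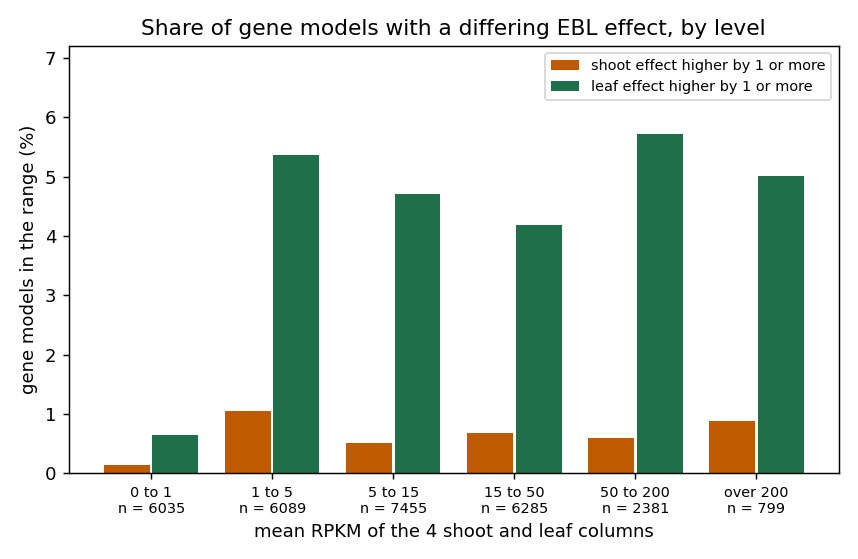
Share of gene models whose EBL effect was higher by 1 or more in shoots or in leaves, in percent of those in each range of mean RPKM over the shoot and leaf columns. Above 1 RPKM the leaf bars stand between 4.18% and 5.71% and the shoot bars between 0.51% and 1.05%.

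Gene models that were at least 2-fold higher in EBL leaves, with less than a 2-fold effect in shoots, were the most numerous, 774 of the 1330 (58.2%). Their medians were 7.05 RPKM in EBL shoots and 7.16 in control shoots, and 17.8 RPKM in EBL leaves and 5.56 in control leaves. In shoots, 441 of them had an effect above 0 and 333 one below 0, and 507 had an effect smaller than 0.25. Among all compared gene models 4.16% were 2-fold higher in EBL leaves, 1209 in number, and 227 were 2-fold lower. Scaled to an equal sum, 552 were 2-fold higher and 751 lower, so the balance of directions in leaves turned round. It kept its direction under median-ratio scaling (1441 higher and 233 lower) and after quantile normalization (1049 higher and 294 lower). Of the 1209, 781 belonged to the set. The other 428 had a median effect of 0.39 in shoots and 1.14 in leaves, so that their shoot effect leaned the same way.

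In the control columns 300 of these 774 were highest in roots (38.8%), 240 in shoots (31.0%) and 234 in leaves (30.2%). Of all compared gene models 43.0% were highest in roots, 32.5% in shoots and 24.5% in leaves, so the 774 had nearly the organ pattern of the whole. The choice used the control shoot and leaf columns, so this likeness carries no test. The 240 highest in shoots stood at a median of 14.3 RPKM in EBL shoots and 14.2 in control shoots, and at 14.0 RPKM in EBL leaves and 4.25 in control leaves. Their median level in EBL leaves was thus near the shoot level. The 240 were picked for a leaf rise, a smaller shoot effect and a highest control value in shoots. Their levels therefore largely follow from the choice and carry no test. The 234 highest in leaves stood at 3.16 and 3.20 RPKM in EBL and control shoots, and at 31.0 and 11.6 RPKM in EBL and control leaves. A leaf effect of at least 2, a 4-fold change, was found for 66 compared gene models, of which 63 belonged to the set.

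The largest difference of this kind with a mean of at least 5 RPKM was that of Zm00001d024897. It stood at 8.73 RPKM in EBL shoots and 16.2 in control shoots, and at 5.80 RPKM in EBL leaves and 0.388 in control leaves. The shoot effect was -0.82 and the leaf effect 2.29, a difference of -3.11, and the gene model was listed at 0 in both root columns. Zm00001d023419 followed, with 1.84 RPKM in EBL shoots and 3.57 in control shoots, and 191 RPKM in EBL leaves and 40.5 in control leaves (difference -2.90). It was already a leaf transcript in control seedlings, whereas Zm00001d024897 was higher in control shoots than in control leaves.

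Among the 1330, 14 reached 1000 RPKM in at least 1 of the 4 columns, and the leaf effect was the higher one in 11 of them. Over all 1330 it was the higher one for 86.9%, so this lean was not particular to the 14. Above a mean of 200 RPKM 5.88% of the compared gene models belonged to the set, against 4.58% of all compared. The most abundant of the 14, singled out after its values were seen, was Zm00001d026160. It stood at 2690 RPKM in EBL shoots and 2829 in control shoots, and at 6629 RPKM in EBL leaves and 2291 in control leaves. Its effects were -0.07 in shoots and 1.53 in leaves. As a group, the 1156 held 3.79% of the summed RPKM of gene models in EBL shoots and 4.12% in control shoots, and 6.90% in EBL leaves and 3.97% in control leaves. Their larger share in EBL leaves follows from the choice and carries no test.

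Gene models that were at least 2-fold lower in EBL leaves, with less than a 2-fold effect in shoots, numbered 104. Among all compared gene models 0.782% were 2-fold lower in EBL leaves, 227 in number (751 when scaled to an equal sum), and 105 of the 227 belonged to the set. The medians of the 104 were 3.27 RPKM in EBL shoots and 3.39 in control shoots, and 3.73 RPKM in EBL leaves and 11.3 in control leaves. In the control columns 65 of them were highest in leaves (62.5%), 31 in roots (29.8%) and 8 in shoots (7.69%), compared with 24.5%, 43.0% and 32.5% of all compared. The 104 were chosen for a control leaf value above the EBL one. Their share highest in control leaves therefore follows in part from the choice and carries no test.

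Zm00001d043413 had the largest difference among them with a mean of at least 5 RPKM. Its values were 829 RPKM in EBL shoots and 709 in control shoots, and 1.34 RPKM in EBL leaves and 10.7 in control leaves, a difference of 2.55. In roots it stood at 754 RPKM with EBL and 626 without. It was thus abundant in shoots and roots and low in leaves, and was lower still in EBL leaves. Zm00001d048660 had the reverse organ pattern, at 64.0 RPKM in EBL shoots and 45.8 in control shoots, and at 198 RPKM in EBL leaves and 797 in control leaves (difference 2.48). Its root values were 0.506 RPKM with EBL and 1.70 without.

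An effect of 2-fold upward in shoots was rare, found for 25 of the compared gene models (0.0861%), and 8 of these belonged to the set because the leaf effect was small or negative. With a pseudocount of 0.1 the number 2-fold higher in EBL shoots was 224, with 2 it was 11, and with gene models listed at 0 in some columns included it was 64. The other 17 had a median effect of 1.202 in shoots and 1.18 in leaves. The largest of them, Zm00001d001075, stood at 64.1 RPKM in EBL shoots and 0.151 in control shoots, and at 113 RPKM in EBL leaves and 1.89 in control leaves. Its effects of 5.82 and 5.30 were the largest in either organ among the gene models compared, and their difference was 0.52. With a control shoot value this low the difference rested on the pseudocount, and was 2.17 with 0.1 and 0.06 with 2. In all, 14 gene models were 2-fold higher in both organs and none of them belonged to the set.

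Zm00001d017104 had the largest difference of all 1330, 3.97. It stood at 21.9 RPKM in EBL shoots and 1.68 in control shoots, and at 6.52 RPKM in EBL leaves and 12.8 in control leaves. It was the one gene model that was 2-fold higher in leaves than in shoots in the control columns and 2-fold higher in shoots than in leaves in the EBL columns. The reverse exchange was found for 7 gene models. Zm00001d025382 stood at 41.2 RPKM in EBL shoots and 11.8 in control shoots, and at 0.444 RPKM in EBL leaves and 0.684 in control leaves (difference 1.94). Zm00001d025471 was at 64.1 and 24.0 RPKM in EBL and control shoots and at 11.2 and 15.4 RPKM in EBL and control leaves (1.798). Zm00001d047185 was at 34.3 and 12.5 RPKM in EBL and control shoots and at 16.6 and 20.03 RPKM in EBL and control leaves (1.64).

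The other 4 were closer to the threshold. Zm00001d001139 was an abundant leaf transcript, at 528 RPKM in EBL shoots and 261 in control shoots, and at 2989 RPKM in EBL leaves and 3280 in control leaves (difference 1.15). Zm00001d031286 was at 2.98 and 0.727 RPKM in EBL and control shoots and at 3.90 and 4.19 RPKM in EBL and control leaves (1.29). Zm00001d003274 was at 8.27 and 3.51 RPKM in EBL and control shoots and at 1.19 and 1.45 RPKM in EBL and control leaves (1.199). Zm00001d046502 was at 3.96 and 1.43 RPKM in EBL and control shoots and at 15.5 and 15.3 RPKM in EBL and control leaves (1.01). The last fell short of 1 with a pseudocount of 2 (0.78), under median-ratio scaling (0.91) and after quantile normalization (0.98), and Zm00001d031286 fell short with a pseudocount of 2 (0.94).

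**Figure D3:**
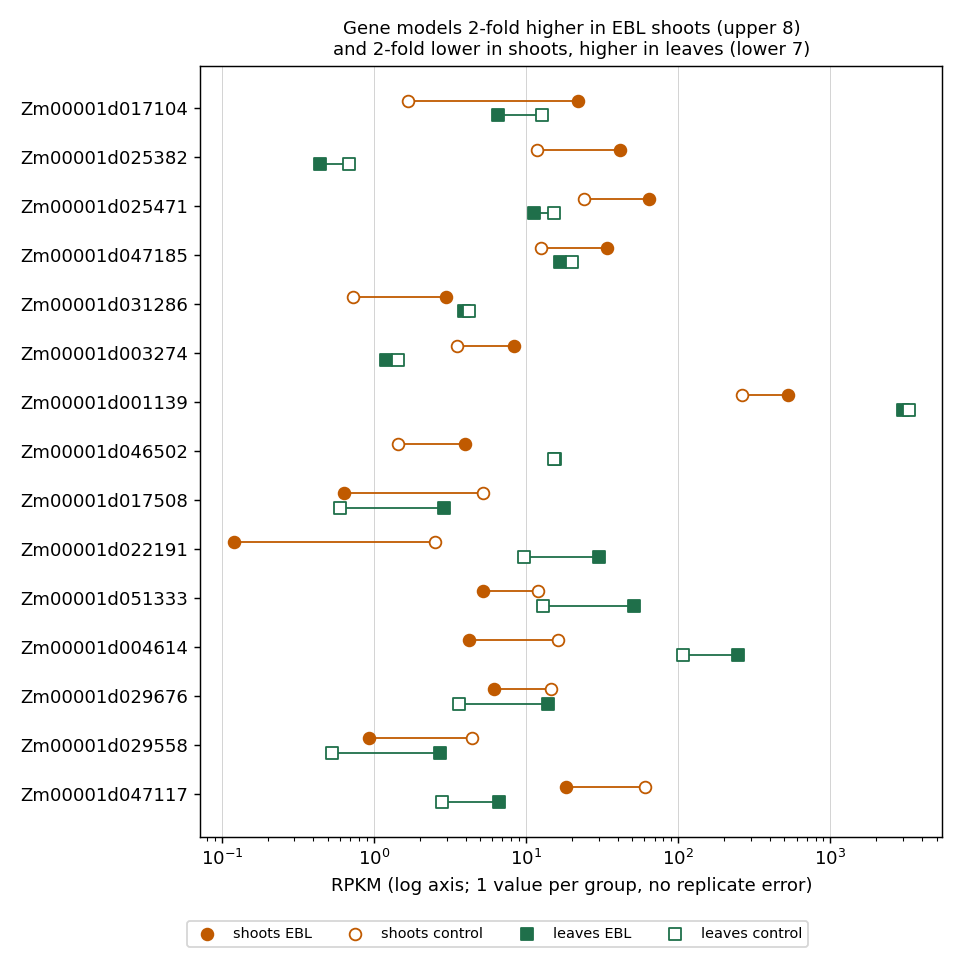
RPKM (log axis) in EBL and control shoots (filled and open circles) and EBL and control leaves (filled and open squares), 1 value per group, with a line joining the columns of an organ. In the upper 8 gene models the EBL shoot value is at least 2-fold above the control one, after adding 1, and the leaf values lie close together or run the other way. In the lower 7 the shoot value is lower and the leaf value higher with EBL.

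Opposite effects past 2-fold in both organs were found for 7 gene models, all of them lower in EBL shoots and higher in EBL leaves. The number depended on the pseudocount, with 67 when 0.1 was added and 3 when 2 was, and it was 25 with gene models listed at 0 in some columns included. Zm00001d004614 was the most abundant in leaves, at 4.20 RPKM in EBL shoots and 16.3 in control shoots, and at 249 RPKM in EBL leaves and 108 in control leaves. Zm00001d022191 stood at 0.121 RPKM in EBL shoots and 2.52 in control shoots, and at 30.4 RPKM in EBL leaves and 9.72 in control leaves. Both were highest in leaves, and in roots Zm00001d004614 stood at 20.1 RPKM with EBL and 22.8 without, and Zm00001d022191 at 0.583 and 0.542.

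The other 5 were highest in roots. Zm00001d047117 stood at 18.3 RPKM in EBL shoots and 60.6 in control shoots, at 6.63 RPKM in EBL leaves and 2.79 in control leaves, and at 1927 RPKM in EBL roots and 2926 in control roots. Zm00001d017508 stood at 0.632 and 5.17 RPKM in EBL and control shoots, at 2.87 and 0.595 RPKM in EBL and control leaves, and at 757 and 865 RPKM in EBL and control roots. Their shoot and leaf values were thus a small part of their root values. Zm00001d029558 showed the same pattern, at 0.930 and 4.43 RPKM in EBL and control shoots, 2.72 and 0.530 RPKM in EBL and control leaves, and 217 and 349 RPKM in EBL and control roots.

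The remaining pair was nearer in level across the organs. Zm00001d051333 stood at 5.25 and 11.99 RPKM in EBL and control shoots, at 51.0 and 12.9 RPKM in EBL and control leaves, and at 134 and 123 RPKM in EBL and control roots. Zm00001d029676 stood at 6.13 and 14.7 RPKM in EBL and control shoots, at 13.9 and 3.64 RPKM in EBL and control leaves, and at 43.4 and 27.8 RPKM in EBL and control roots. Its leaf value was below its shoot value in control seedlings and above it in EBL seedlings. A single gene model was at least 2-fold lower in both organs and still belonged to the set, Zm00001d023768, with effects of -1.05 in shoots and -2.25 in leaves. Its difference fell short of 1 with a pseudocount of 2 (0.96).

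Gene models that were at least 2-fold lower in EBL shoots and belonged to the set numbered 67, of 103 that were 2-fold lower there among all compared (0.355%, or 548 gene models with a pseudocount of 0.1). Of the 67, 59 had less than a 2-fold effect in leaves. Most of these 67 were root transcripts: 38 were at least 8-fold higher in control roots than in both control shoots and control leaves, whereas 338 of all 29044 compared gene models were (1.16%). The medians of the 38 were 1.00 RPKM in EBL shoots and 5.33 in control shoots, 0.807 RPKM in EBL leaves and 0.610 in control leaves, and 220 RPKM in EBL roots and 248 in control roots. Their root effect had a median of -0.19, and 4 of the 38 passed 2-fold in roots.

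The shoot level of these 38 was a small part of the root level. It was 0.340% of the root value in the EBL columns (median, quartiles 0.255% and 0.920%) and 2.25% in the control columns (quartiles 1.63% and 2.89%). The 38 were chosen for a lower shoot value with EBL, so their lower ratio in the EBL columns largely follows from the choice and carries no test. The leaf level was 0.334% of the root value in the EBL columns and 0.244% in the control columns. Among all 338 root-high gene models the shoot level was 1.61% of the root value in the EBL columns and 2.96% in the control columns, and 304 of them had a shoot effect below 0, while 15355 of all 29044 had one above 0. The choice by organ level used the control columns, so it caps the control ratios and not the EBL ones. Among the 338 the highest shoot ratio was 11.6% in the control columns and 194% in the EBL columns. In such bulk samples fewer cells of a type and less RNA per cell cannot be told apart, and the part of root material in the shoot samples was not tested. Without the gene models that were root-high by this rule, a variant chosen once the data had been seen, 58 of the compared gene models were 2-fold lower in EBL shoots, against 103 with them, and opposite effects past 2-fold were left in 3 of the 7.

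Zm00001d017485 had the largest difference on the leaf side, -3.64. It stood at 1.74 RPKM in EBL shoots and 20.3 in control shoots, at 6.30 RPKM in EBL leaves and 3.56 in control leaves, and at 1132 RPKM in EBL roots and 1266 in control roots. Zm00001d023280 stood at 1.42 RPKM in EBL shoots and 17.2 in control shoots, at 1.44 RPKM in EBL leaves and 1.05 in control leaves, and at 884 RPKM in EBL roots and 835 in control roots (difference -3.17). In both, the shoot value was low in either treatment beside that of roots. Of the 29 others that were lower in EBL shoots, 20 were highest in control leaves, 6 in control roots and 3 in control shoots.

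**Figure D4:**
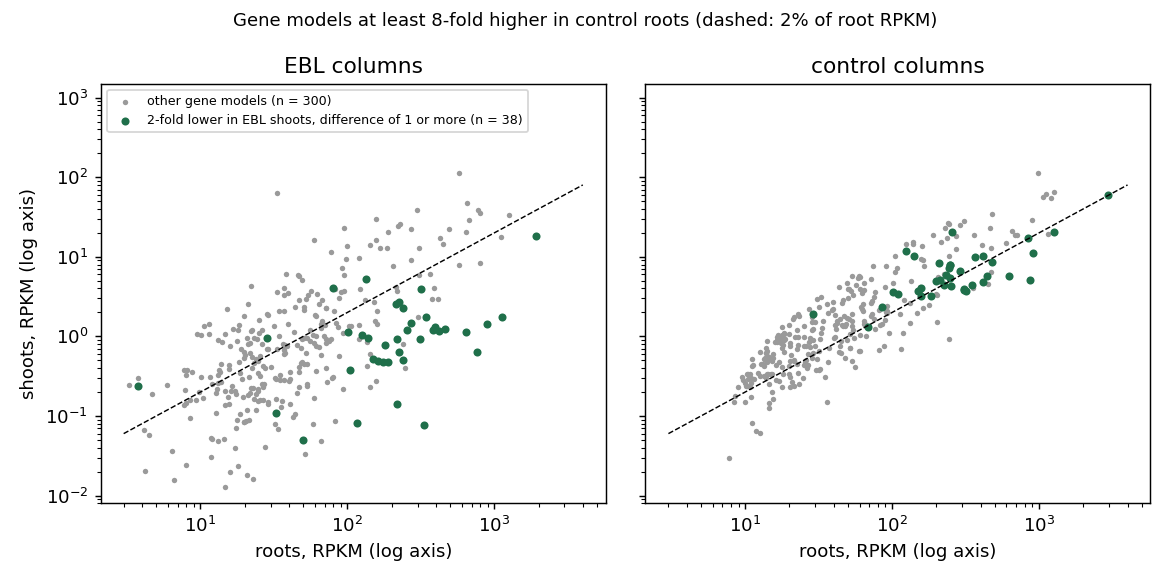
Shoot RPKM against root RPKM (both log axes) in the EBL columns (left) and the control columns (right) for the 338 gene models at least 8-fold higher in control roots than in control shoots and leaves. The 38 in green were chosen as 2-fold lower in EBL shoots, with effects that differed by 1 or more. They lie around the dashed line of 2% in the control columns, with a median of 2.25%. In the EBL columns, where the choice lowers them, they lie mostly below it, with a median of 0.340%.

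In 377 of the 1330 neither organ passed 2-fold and the difference was the sum of smaller effects, which must then have opposite signs. Of these, 316 were lower in EBL shoots and higher in EBL leaves, with median effects of -0.39 and 0.80, and 61 were higher in EBL shoots and lower in EBL leaves, with median effects of 0.37 and -0.82. The largest with a mean of at least 5 RPKM were Zm00001d032468 and Zm00001d018618. Zm00001d032468 stood at 1.65 RPKM in EBL shoots and 3.76 in control shoots, and at 19.3 RPKM in EBL leaves and 9.78 in control leaves (difference -1.76). Zm00001d018618 stood at 39.2 RPKM in EBL shoots and 69.5 in control shoots, and at 129 RPKM in EBL leaves and 67.3 in control leaves (-1.74). Zm00001d018618 was thus nearly level between the organs in control seedlings and more than 2-fold higher in leaves in EBL seedlings.

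The order of the organs differed between the EBL and control columns for many gene models. For each gene model, the change in its shoot-to-leaf ratio (log2, pseudocount added) equals the difference used to choose it. The shifts of the chosen groups towards their own side therefore follow from the choice and carry no test. Of the 1156 with a higher leaf effect, leaves were at least 2-fold above shoots for 662 (57.3%) in the EBL columns and for 270 (23.4%) in the control columns. Shoots were at least 2-fold above leaves for 112 (9.69%) in the EBL columns and for 328 (28.4%) in the control columns. Of the 174 with a higher shoot effect, leaves were at least 2-fold above shoots for 49 (28.2%) in the EBL columns and for 104 (59.8%) in the control columns. Over all compared gene models, most of them not chosen, leaves were 2-fold above shoots for 14.6% in the EBL columns and 12.8% in the control columns. Shoots were 2-fold above leaves for 28.8% in the EBL columns and 26.5% in the control columns. That these shares moved less follows from the choice as well. The order of shoots and leaves was exchanged for 357 of the 1156 (30.9%) and 43 of the 174 (24.7%), and for 3331 of all compared (11.5%).

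Roots were not used to choose the gene models, and their median EBL effect there was near 0. Of the 1156, 1127 had both root values above 0, with a median root effect of 0.07 (quartiles -0.18 and 0.28), and of the 174, 167 had, with a median of -0.07 (quartiles -0.39 and 0.19). Over the 28368 gene models with both root values above 0 the median was 0.04 (quartiles -0.09 and 0.17). A 2-fold effect in roots was found for 9 of the 1127 upward and 25 downward, together 3.02%, and for 9 of the 167 upward and 12 downward, together 12.6%. The background in roots was 0.398% upward, 1.3% downward and 1.7% in either direction. An effect above 0 in roots was seen in 56.9% of the 1127, 41.9% of the 167 and 59.2% of all. The spread of the root effects was therefore wider in both groups than over all gene models, with no test of that difference. The groups were not matched for level: 6035 of the 29044 compared had a mean shoot and leaf level of at most 1 RPKM, against 47 of the 1330. The pseudocount damps effects at low levels, and its part in the spread was not tested. The median of those with a higher shoot effect was 0.0168 when 0.1 was added in place of 1.

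**Figure D5:**
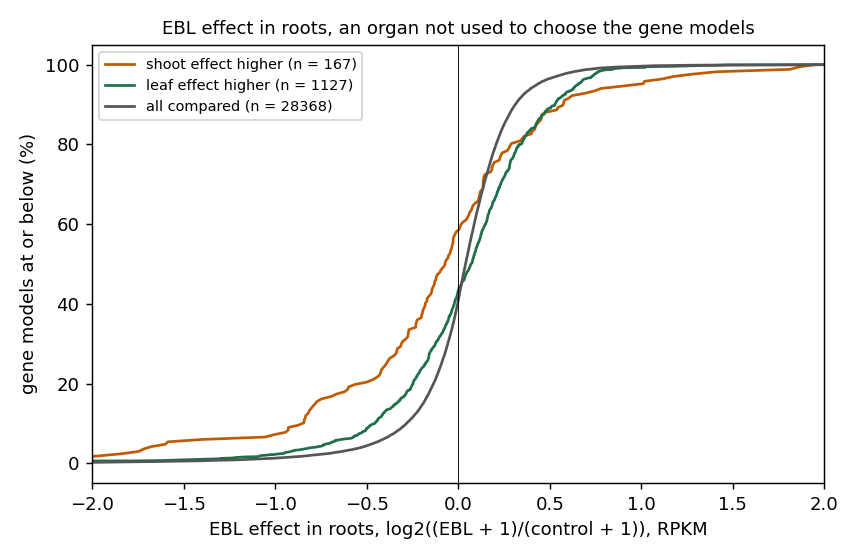
Cumulative share of gene models (percent at or below) by their EBL effect in roots, log2((EBL + 1)/(control + 1)) of RPKM, drawn from -2 to 2. The curves of the 167 gene models with a higher shoot effect (median -0.07) and the 1127 with a higher leaf effect (median 0.07) rise less steeply than that of all 28368 (median 0.04).

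The 104 gene models lower in EBL leaves had a median root effect of -0.09, with 5 past 2-fold upward and 8 downward of the 102 that could be compared in roots. The 774 higher in EBL leaves had a median root effect of 0.08, with 7 past 2-fold upward and 9 downward of the 751 that could be compared in roots. Across the 1294 gene models of the set compared in roots, Spearman's correlation of the root effect was 0.09 with the shoot effect and 0.15 with the leaf effect. Over all 28368 it was 0.09 and 0.18. These correlations are across gene models, which are not independent and share the columns of an organ.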

How the data were processed

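The authors' deposited table has 6 columns of RPKM, each a single value for an organ under a treatment, as its headers show. The way the 3 replicates were combined is not given in the sources used. The submitters' processing notes list Cufflinks 2.2.1, TopHat2 2.0.13, Trimmomatic 0.33 and CASAVA 1.8 and the build B73 RefGen_v4, without saying what each did. Scaling by library size makes each value depend on the others of its column, so abundant transcripts that rise lower the rest. Low RPKM values can rest on few reads, and a 0 can be a failed estimate.

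The planned limma fit needs single libraries and could not be run, so a rule of size (an effect or difference of at least 1, log2, pseudocount 1) stands in its place. The code for the rule and its classes was checked on simulated data. Set changes and set noise were given there, and the changed gene models had at least 5 RPKM in both control columns. As the noise between replicates is unknown, that check cannot show how reliable the calls are in these data. Named gene models are the 2 with the largest difference per class among those with a mean of at least 5 RPKM, all of a class of 8 or fewer, and others singled out where the text says so. The members and lists were chosen with earlier results of these data known. The 34 gene lists by symbol or description had 0 matched members, since the RefSeq table (Zm-B73-REFERENCE-NAM-5.0, another build) holds no Zm00001d identifier. Computations used Python 3.11.15, numpy 2.4.6, pandas 2.3.3 and matplotlib 3.10.9.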

Additional observations from a re-analysis of the deposited data

Results flagged for a closer look

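The 7 gene models with 2-fold effects of opposite direction were singled out because shoots moved one way and leaves the other; with 1 value per group this was not tested. Their differences (shoot effect minus leaf effect, log2) were -3.20 for Zm00001d017508, -3.20 for Zm00001d022191, -2.96 for Zm00001d051333, -2.94 for Zm00001d004614, -2.82 for Zm00001d029676, -2.78 for Zm00001d029558 and -2.68 for Zm00001d047117.

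Differences of 1 or more also appeared in features other than the gene models. They numbered 8 of 30 miRNA genes, 102 of 296 non-coding RNA features with ENSRNA identifiers and 8 of 103 features with GRMZM5G identifiers. In the 8 GRMZM5G features the shoot effect was the higher one throughout, with shoot effects from 0.16 to 0.64 and leaf effects from -0.87 to -0.47, none of them past 2-fold within an organ. Their medians were 4.76 RPKM in EBL shoots and 3.10 in control shoots, and 14.4 RPKM in EBL leaves and 23.0 in control leaves. Over all 103 GRMZM5G features the median difference was 0.19, also on the shoot side. Of the 20 with a mean of at least 5 RPKM, 7 differed by 1 or more.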

How the results depend on the processing

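No paired analysis was possible because the table gives 1 value per group; for the same reason leaving out replicates was not run. With a pseudocount of 0.1 in place of 1, 3032 gene models differed, 682 with the shoot effect higher and 2350 with the leaf effect higher, and the median root effect of those with a higher shoot effect was 0.0168, above 0 in place of below it; with 2, the shoot effect was higher for 101. With a mean of at least 5 RPKM it was higher for 102. Scaled to an equal sum, 351 had the shoot effect higher and 719 the leaf effect, and 552 gene models were 2-fold higher and 751 lower in EBL leaves, against 1209 and 227 in the deposited values. The cause was not tested. Under the other alternatives the numbers of gene models with the shoot effect higher, with the leaf effect higher and in all stayed within 1.5 times. Counts within an organ also moved: with a mean of at least 5 RPKM, 55 gene models were 2-fold lower in EBL shoots, against 103, and 128 in EBL leaves, against 227; with a pseudocount of 2 they were 57 and 135; with 0.1, 704 were lower and 2148 higher in EBL leaves. In EBL leaves, median-ratio scaling gave 1441 gene models 2-fold higher and 233 lower, and quantile normalization 1049 higher and 294 lower. For the 32 gene models of the set that are named, no alternative turned the sign of the difference, and 8 of 265 recomputed differences fell short of 1. The alternatives that only leave out or add gene models cannot change a difference, yet they count among the 265. The 8 came from the pseudocount of 2, median-ratio scaling, quantile normalization and equal-sum scaling. Chosen after the data were seen were the inclusion of gene models listed at 0 in some columns (257 with the shoot effect higher and 1263 with the leaf effect higher) and the removal of root-high ones (172 and 1101).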

Other observations

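The miRNA genes are the features that carry names here, and their values in polyA libraries describe longer transcripts over these loci, not mature miRNAs. MIR171d, of a family that targets GRAS transcription factors, stood at 32.4 RPKM in EBL shoots and 5.64 in control shoots, and at 13.9 RPKM in EBL leaves and 38.4 in control leaves, a difference of 3.73. MIR394b, whose Arabidopsis relatives act in stem cells of the shoot apex, stood at 21.9 and 7.71 RPKM in EBL and control shoots and at 1.06 and 1.64 RPKM in EBL and control leaves (1.76). MIR156a, from the family that controls SPL factors of phase change, leaned to the leaf, at 6.08 and 6.53 RPKM in EBL and control shoots and 11.5 and 4.80 RPKM in EBL and control leaves (-1.20). The other 5 (MIR159f, MIR160b, MIR164d, MIR169j and MIR396e) had at least 1 of the 4 values at or under 0.0224 RPKM, as doubtful as a listing at 0.

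Runs of consecutive identifiers, noticed after the values were seen, shared the pattern of root transcripts lower in EBL shoots. Zm00001d047114, Zm00001d047115 and Zm00001d047116 stood at 1.12, 0.778 and 0.962 RPKM in EBL shoots and at 11.0, 3.21 and 4.38 RPKM in control shoots. Their root values were 645, 180 and 139 RPKM with EBL and 908, 183 and 224 RPKM without, and the next identifier is Zm00001d047117, described above. Zm00001d004728, Zm00001d004729 and Zm00001d004730 stood at 0.473, 0.929 and 0.377 RPKM in EBL shoots and at 4.96, 6.65 and 2.32 RPKM in control shoots. No source used here says how reads shared between similar copies were counted, so these need not be separate observations. Of the 59 gene models lower in shoots alone, 8 (13.6%) had a neighbouring identifier among the 59, and of the 1330, 132 (9.92%) had one in the set. Of all 103 that were 2-fold lower in EBL shoots, 9 (8.74%) had one among the 103. Of the 774 higher in EBL leaves, 44 (5.68%) had one among the 774, and of all 29044 compared, 83.7% had one. Such shares rise with the size of the set, so they cannot be set against each other, and clustering was not tested.

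Zm00001d044099, taken for its high level after its values were seen, was 2-fold lower in EBL shoots, at 19.2 RPKM against 43.7 in control shoots, and stood at 5270 RPKM in EBL leaves and 5628 in control leaves. In roots it was at 4.17 RPKM with EBL and 66.7 without. Its difference of -1.05 fell short of 1 in size when the columns were scaled to an equal sum (-0.85) and after quantile normalization (-0.80).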
